A study of Arabidopsis thaliana with 24 samples.

Results

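Gene expression in rosettes of mil4 sid2 double mutants of Arabidopsis thaliana was compared with that in rosettes of mil4 single mutants, on 8 of the 24 Affymetrix ATH1 arrays of the series. The members were chosen by their titles alone: the 4 arrays titled as the mil4 sid2 double mutant with water and the 4 titled as mil4 with water. Plants of both groups carried the mil4 mutation, named for MILDEW-INDUCED LESIONS 4, and the groups differed by the added sid2 mutation. Plants were grown at 22 °C with light for 14 h a day, sprayed with water 2 days before harvest and harvested at 4 weeks of age. sid2 single mutants with water, Col wild-type plants with water, and Col and mil4 plants sprayed with 300 µM BTH, 4 arrays each and of the same age, are set beside the members where a result calls for them. The sources used here do not give the alleles, the origin of the double mutant or the number of plants behind each array. The labels call the replicates biological, but nothing says how their plants were grown apart, so p-values measure the spread between these arrays.

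Salicylic acid is a plant hormone of defence against biotrophic pathogens such as powdery mildews. SID2 encodes isochorismate synthase 1 (ICS1), the enzyme that makes most of the salicylic acid that accumulates on infection, and sid2 mutants build up little of it. BTH (benzothiadiazole) is a synthetic compound that switches on the same downstream response, through the coactivator NPR1. In mutants of Arabidopsis, removal of salicylic acid by sid2 is a common way to ask which changes need the hormone, and the comparison puts that question to mil4.

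All 4 mil4 sid2 arrays, and the 4 sid2 arrays, were hybridized on a day of their own, day 4 of the series, and the mil4 and Col arrays on days 1 to 3. Hybridization day and genotype therefore cannot be told apart in mil4 sid2 against mil4. With the day as a random block 1166 probe sets passed, against 1266 without it. No day held arrays of both groups, so a random block cannot remove a day shift, and this count does not measure one. A fit of this comparison with the day as a fixed block was not possible. The test of whether sid2 acted differently in mil4 and in Col, given further below, sets day 4 arrays against earlier ones on both sides, so that an equal day shift cancels. In the gene names used here no probe set carried the name of ICS1, PR1, PR2, PR5 or MIL4. The genotypes could therefore not be checked by the signal of these genes. Probe sets without a gene name, 8730 of the 22746 tested, may include some of them. Array medians were 151.8 to 165 in mil4 sid2 and 152.1 to 159 in mil4. The share of probe sets under an intensity of 16 was 15.3% ± 0.895 (SD, n = 4) in mil4 sid2 and 16.95% ± 0.477 in mil4 (exact permutation test, 2-sided, p = 0.0286, the smallest that 4 against 4 arrays allow), and the part of this difference in the results was not tested. As a measure of RNA integrity, GAPDH had a 3′ over 5′ ratio that was 1.09 ± 0.0173 in mil4 sid2 and 1.03 ± 0.436 in mil4, where replicate 4 had 1.65. The same ratio of actin was 9.11 ± 1.18 in mil4 sid2 and 11.9 ± 3.76 in mil4 (exact permutation p = 0.2), and that of ubiquitin was 2.56 ± 0.339 in mil4 sid2 and 2.16 ± 0.448 in mil4 (exact permutation p = 0.2). Of the markers of the main rosette cell, LHCB4.1 and LHCB4.2, chlorophyll-binding proteins, read between 24416 and 37024 in mil4 sid2 and between 23086 and 38239 in mil4. The trichome marker TRY, the root marker PYK10 and 3 guard cell genes did not pass either, with summed guard cell levels of 389 to 453 in mil4 sid2 and 279 to 483 in mil4, and no named probe set was found for floral, vascular or dividing-cell markers. Since whole rosettes were extracted, fewer cells of a type and less RNA per cell cannot be told apart.

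Rosettes of mil4 sid2 differed from those of mil4 in both directions, with the larger folds among the falls. In limma, 1266 of 22746 probe sets had an adjusted p under 0.05, which is 5.57% of those tested. Of these, 625 (2.75%) were higher and 641 (2.82%) lower in mil4 sid2. A change of at least 2-fold was found for 84 of the higher and 177 of the lower probe sets. The median log2 fold change of all probe sets was 0.071, on the scale of log2(intensity + 16) used for all fold changes, which understates the changes of dim genes. The 4 arrays of each group did not overlap at 2996 probe sets (13.2%), 1726 (7.59%) higher and 1270 (5.58%) lower, and 1179 (5.18%) both passed and did not overlap. Of the probe sets that passed, 659 carry a single gene name. The count moved with the arrays used: 814 passed without mil4 replicate 2, 807 without mil4 sid2 replicate 2 and 829 without mil4 sid2 replicate 4. It was 609 when the 8 arrays were fitted alone and 590 with the fluidics module of the wash station as a block. Without replicate 1, 2 or 4 of either group the count of rises was between 340 and 408.

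**Figure D1:**
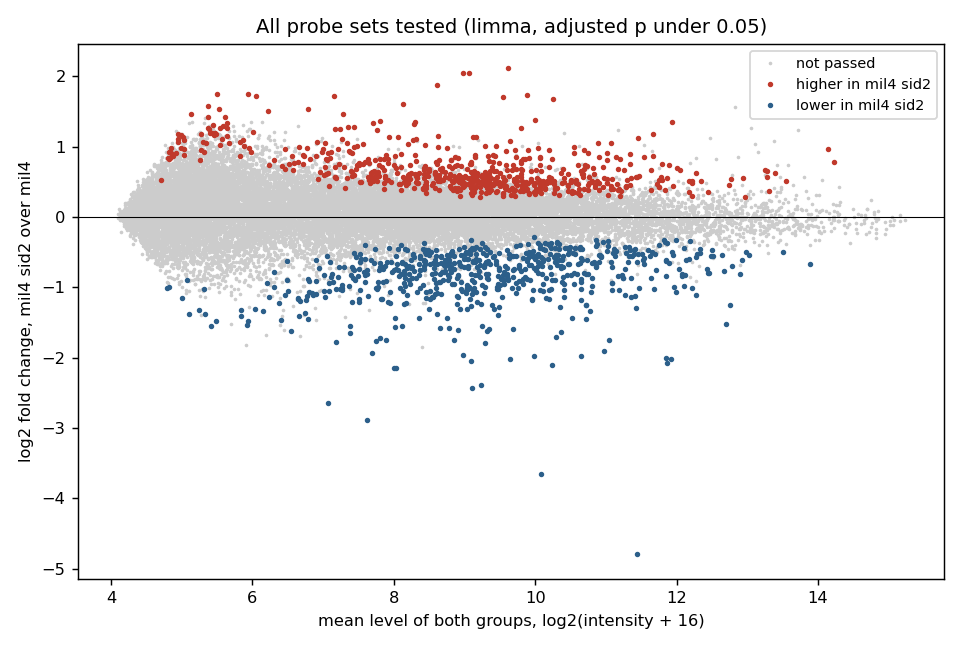
Log2 fold change of mil4 sid2 over mil4 (vertical axis) against the mean level of both groups, log2(intensity + 16) (horizontal axis), for the 22746 probe sets; red points passed higher in mil4 sid2 (625), blue points passed lower (641) and grey points did not pass. The falls reach below -4 and the rises stay near or under 2.

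The largest change of any probe set was the fall of a probe set with no gene name in the tables used here. 266385_at read 123, 224, 213 and 119.9 in mil4 sid2, against 5425, 6521, 2531 and 6872 in mil4. The arrays of the groups lay far apart, and the fall was 27.8-fold (log2 fold change -4.80, SE 0.28, adjusted p = 2.12e-09, 95% interval of the log2 value -5.38 to -4.22). It was also lower in sid2 than in Col (log2 fold change -2.78, adjusted p = 4.91e-07), and BTH raised it in Col by 3.67 on the log2 scale (adjusted p = 2.41e-08). In mil4 sid2 its mean of 170.0 ± 56.1 was close to the 173 ± 32.9 of sid2, below the 1322 ± 394 of Col with water. A further unnamed probe set, 245757_at, read 84.4, 129, 183 and 187 in mil4 sid2, against 1379, 2192, 1784 and 2628 in mil4, 12.6-fold lower (log2 fold change -3.65, SE 0.41, adjusted p = 1.37e-05). The largest unnamed rises were those of 259244_at, at 2.04 on the log2 scale (adjusted p = 3.85e-07), and 267364_at, at 1.87 (adjusted p = 7.15e-06). These 4 were chosen after their values were seen.

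Among genes with a name, the 12 largest falls ran between 3.36-fold and 7.39-fold on the log2(intensity + 16) scale and the 12 largest rises between 2.19-fold and 4.33-fold. The falls held 3 genes of the cell wall or its growth, 2 transporter genes and 7 genes known here by locus alone. In each of these 24 genes the groups did not overlap, which the choice of genes required.

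**Figure D2:**
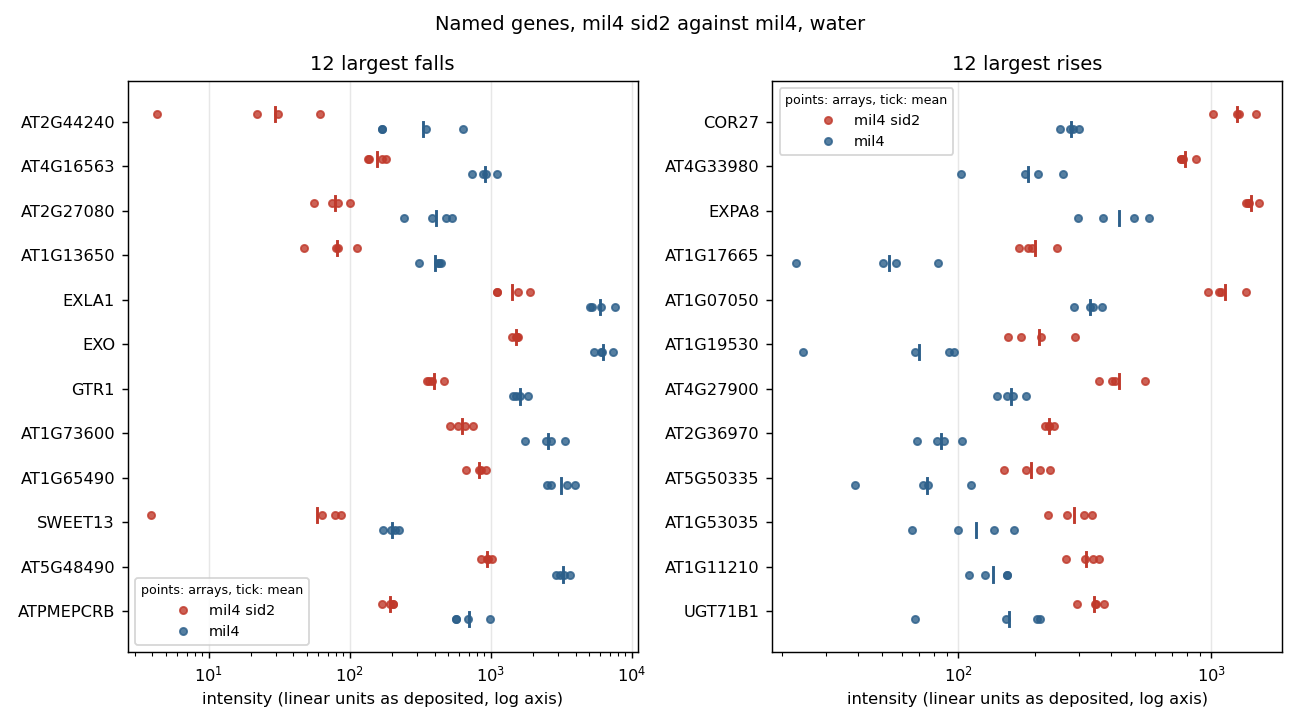
Intensity of the 12 named genes with the largest falls (left) and rises (right) on each array, on a log axis, with mil4 sid2 (red) above mil4 (blue) for each gene; points are arrays and ticks are means of 4 arrays. Every mil4 sid2 array lies on 1 side of every mil4 array, from AT2G44240 with 29.7 ± 23.9 in mil4 sid2 and 332 ± 219.9 in mil4 (mean ± SD) to COR27 with 1265 ± 198 in mil4 sid2 and 278 ± 20.2 in mil4.

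Genes of the growing cell wall were among the strongest falls. EXLA1, an expansin-like wall protein, read 1116, 1115, 1554 and 1909 in mil4 sid2, against 5248, 6062, 5043 and 7557 in mil4, 4.22-fold lower in mil4 sid2 (log2 fold change -2.08, SE 0.39, adjusted p = 0.00294). EXO (EXORDIUM), a secreted protein that promotes growth downstream of brassinosteroids, read 1507, 1425, 1573 and 1547 in mil4 sid2, against 5402, 6027, 6174 and 7312 in mil4, 4.06-fold lower (log2 fold change -2.02, SE 0.43, adjusted p = 0.00667). The 4 mil4 sid2 arrays lay close together for EXO, far below the lowest mil4 array. ATPMEPCRB, a pectin methylesterase (PME41) that strips methyl groups from wall pectin, read 204, 201, 169.6 and 194 in mil4 sid2, against 564, 691, 564 and 981 in mil4, 3.36-fold lower (log2 fold change -1.75, SE 0.20, adjusted p = 1.66e-05). XTH33 and XTH16 encode enzymes that cut and rejoin xyloglucan chains of the wall. XTH33 read 120.2, 102, 120.4 and 119.6 in mil4 sid2, against 329, 382, 365 and 413 in mil4 (log2 fold change -1.56, SE 0.40, adjusted p = 0.0244). XTH16 read 437, 416, 298 and 379.5 in mil4 sid2, against 927, 917, 837 and 1041 in mil4 (log2 fold change -1.26, SE 0.19, adjusted p = 0.000362). Both fell, and they were the 2 of 9 measured xyloglucan hydrolase genes that passed, where 2.82% of all probe sets were lower, with 0 of 9 higher and a list median log2 fold change of -0.51, beside 0.071 over all probe sets. XTH33 lost its call in 6 of the alternative settings.

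EXPA8, an alpha-expansin that loosens the wall, went the other way. It read 1373, 1547, 1413 and 1394 in mil4 sid2, against 372, 296, 565 and 494 in mil4, 3.32-fold higher in mil4 sid2 (log2 fold change 1.73, SE 0.25, adjusted p = 0.000248). Of the 18 measured expansin genes, EXPA8 passed higher, EXLA1 passed lower and 16 did not pass, where 5.57% of all probe sets passed, and the median of the list was 0.16. EXLA2, of the same small branch as EXLA1, averaged 292 ± 54.2 in mil4 sid2 and 518 ± 87.4 in mil4 (SD, n = 4 each; log2 fold change -0.80, SE 0.24, adjusted p = 0.0609), a difference that missed the threshold although the arrays did not overlap.

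A glucosinolate transporter gene and a sugar transporter gene were lower in mil4 sid2. GTR1 imports glucosinolates, the sulfur-rich defence compounds of the cabbage family, into cells. It read 470.0, 355, 387 and 367 in mil4 sid2, against 1503, 1621, 1445 and 1851 in mil4, 3.95-fold lower (log2 fold change -1.98, SE 0.16, adjusted p = 3.85e-07), with a 95% interval of -2.32 to -1.65 for the log2 value. GTR2, its partner, averaged 730.3 ± 63.1 in mil4 sid2 and 906 ± 76.6 in mil4 and did not pass (log2 fold change -0.30, SE 0.13, adjusted p = 0.203). SWEET13 exports sucrose from leaf cells toward the phloem. It read 3.9, 78.4, 63.4 and 87.4 in mil4 sid2, against 172, 224, 211 and 197 in mil4, 3.45-fold lower (log2 fold change -1.79, SE 0.40, adjusted p = 0.01). The mil4 sid2 array at 3.9 is close to background, and without it the log2 fold change was -1.23 (adjusted p = 0.0223). The call was lost when the 2 groups were fitted alone (adjusted p = 0.0992).

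The other large falls are genes known in the tables used here by locus alone. AT2G44240 read 61.5, 31.1, 4.3 and 21.9 in mil4 sid2, against 171, 171, 351 and 637 in mil4 (log2 fold change -2.88, adjusted p = 0.0013). The levels in mil4 sid2 were near background, as in sid2 (30.6 ± 29.8) and in Col with water (27.3 ± 24.7), so the size of this fall depends on the added 16. AT4G16563 read 136, 179.8, 136 and 170.1 in mil4 sid2, against 733, 887, 1102 and 927 in mil4 (5.39-fold, log2 fold change -2.43, SE 0.35, adjusted p = 0.00021). AT2G27080 read 56.3, 74.7, 100.4 and 82.7 in mil4 sid2, against 245, 482, 387 and 533 in mil4 (4.42-fold, log2 fold change -2.14, SE 0.24, adjusted p = 1.27e-05). In both genes the lowest mil4 array was more than 2-fold above the highest mil4 sid2 array. AT1G13650 read 82.8, 47.3, 80.5 and 113 in mil4 sid2, against 421, 312, 445 and 432 in mil4 (4.41-fold, log2 fold change -2.14, SE 0.22, adjusted p = 7.15e-06). AT5G48490 had the smallest adjusted p of the 24 genes and read 860.2, 964, 942 and 1025 in mil4 sid2, against 3115, 2883, 3635 and 3316 in mil4 (3.37-fold, log2 fold change -1.75, SE 0.13, adjusted p = 8.12e-08). AT1G73600 averaged 626 ± 101 in mil4 sid2 and 2560.0 ± 659 in mil4 (3.94-fold), and AT1G65490 averaged 823 ± 109 in mil4 sid2 and 3156 ± 678 in mil4 (3.74-fold).

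COR27 and a gene of the same list led the rises. COR27 is a cold-induced gene whose protein also acts as a repressor within the circadian clock. It read 1500.1, 1257, 1016 and 1287 in mil4 sid2, against 252, 300.5, 284 and 276 in mil4, 4.33-fold higher in mil4 sid2 (log2 fold change 2.11, SE 0.27, adjusted p = 6.1e-05). AT4G33980, placed with COR27 in the list of touch, cold and rapid stress genes, read 759, 757, 769.8 and 870.4 in mil4 sid2, against 260.1, 183, 206 and 102 in mil4 (4.13-fold, log2 fold change 2.05, SE 0.39, adjusted p = 0.00292). Its call was lost with a pseudocount of 1. COR27 and AT4G33980 were the 2 of 7 measured genes of that list that passed, both higher, where 2.75% of all probe sets were. COR15A, a cold-induced chloroplast protein, averaged 1458 ± 424 in mil4 sid2 and 1048 ± 272 in mil4 and did not pass (log2 fold change 0.46, SE 0.42, adjusted p = 0.619). GI (GIGANTEA), an evening gene of the clock, read 2356, 2496, 2086 and 2327 in mil4 sid2, against 1909.7, 1900.2, 2090.5 and 1608 in mil4. The groups overlapped slightly, and the adjusted p of 0.0913 missed the threshold. The sources used here do not state the hour of harvest, and its part in these rises was not tested.

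The remaining named rises ran from 2.19-fold to 3.28-fold. AT1G07050 averaged 1128 ± 174 in mil4 sid2 and 332 ± 34.8 in mil4 (3.27-fold, log2 fold change 1.71, SE 0.24, adjusted p = 0.000207). AT4G27900 averaged 432 ± 81.5 in mil4 sid2 and 162 ± 17.7 in mil4 (2.5-fold, log2 fold change 1.32, SE 0.20, adjusted p = 0.000453). AT2G36970 averaged 229 ± 7.23 in mil4 sid2 and 85.3 ± 14.3 in mil4 (2.43-fold, log2 fold change 1.28, SE 0.17, adjusted p = 0.000128). UGT71B1, a glycosyltransferase that joins sugar to small molecules, read 347, 375, 296 and 351 in mil4 sid2, against 154, 205, 210.3 and 67.4 in mil4 (2.19-fold, log2 fold change 1.13, SE 0.30, adjusted p = 0.0267). The mil4 array at 67.4 lay well below the other mil4 arrays for this gene, and without it the adjusted p was 0.0952. AT1G17665 rose 3.28-fold, AT1G19530 2.75-fold, AT5G50335 2.39-fold, AT1G53035 2.35-fold and AT1G11210 2.2-fold. AT5G50335, AT1G53035 and UGT71B1 each lost the call in 9 to 11 of the alternative settings tried. AT1G17665 lost it with a pseudocount of 1 and AT1G19530 when the 2 groups were fitted alone. Both also lost it with a replicate block on these 2 groups. Of the 24 named genes, falls and rises together, 9 kept the call in every alternative setting, of which there were up to 19 for a gene.

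The effect of sid2 was then set beside its effect in wild-type plants, that is, sid2 against Col with water, which shares no array with the comparison above. In sid2 against Col 3062 probe sets passed (13.5%). Of the 641 probe sets lower in mil4 sid2, 277 (43.2%) were also lower in sid2 than in Col, where 6.82% of all probe sets were lower, and these were 17.9% of the 1551 lower ones. A further 78 of the 641 (12.2%) were higher in sid2, beside 6.64% of all. Of the 625 probe sets higher in mil4 sid2, 206 (33.0%) were also higher in sid2, beside 6.64% of all, and these were 13.6% of the 1511 higher ones, while 39 (6.24%) were lower, beside 6.82% of all. In both comparisons the sid2 plants were the day 4 arrays, and the part of the day in this sharing was not tested. sid2 replicate 1 stood apart from the other arrays, with 9.61% of its probe sets under 16, and without it 26.9% of the higher and 41.7% of the lower probe sets were shared.

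AT1G73600, AT1G65490 and AT1G13650 are examples of falls found in both backgrounds. AT1G73600 had a log2 fold change of -1.98 for mil4 sid2 over mil4 and of -2.18 for sid2 over Col, with no difference between these effects past the threshold (interaction 0.20, SE 0.30, adjusted p = 0.835). AT1G65490 had -1.90 in the mil4 background and -1.56 in the Col background, and AT1G13650 had -2.14 and -1.71 in the same order. AT1G07050 was an example of a rise, with 1.71 in the mil4 background and 2.32 in the Col background. COR27 rose in both, by 2.11 in mil4 sid2 over mil4 and by 4.05 in sid2 over Col, a smaller rise in the mil4 background (interaction -1.94, adjusted p = 0.00293). In Col with water COR27 was near background, at 13, 41.2, 38.4 and 5.4.

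**Figure D3:**
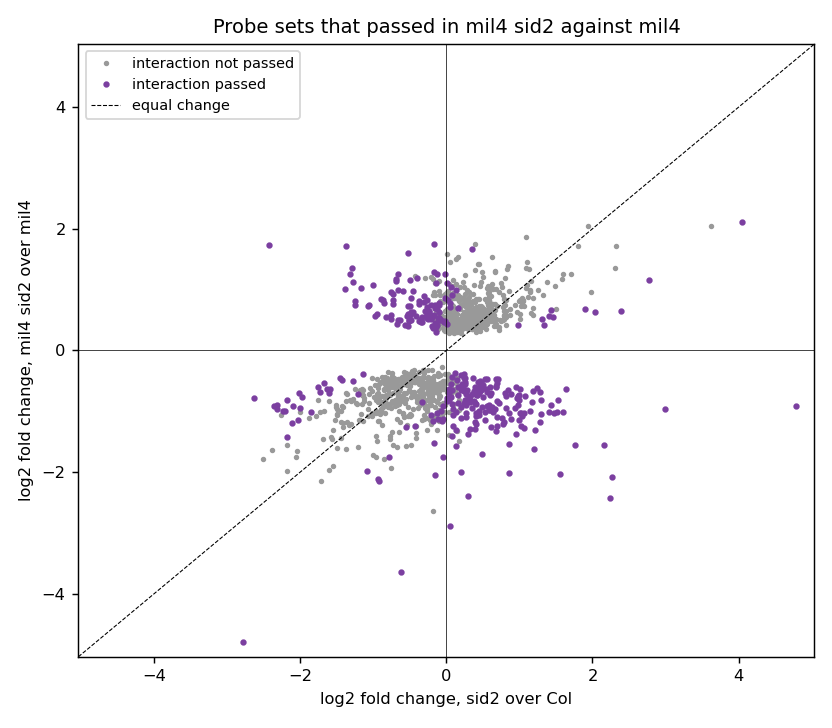
Log2 fold change of mil4 sid2 over mil4 (vertical axis) against that of sid2 over Col (horizontal axis) for the 1266 probe sets that passed in mil4 sid2 against mil4; purple points also passed the interaction test, grey points did not, and the dashed line marks equal change. Falls with an interaction call spread to the lower right, where sid2 was above Col, as for EXLA1 with -2.08 against 2.27.

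Whether sid2 acted differently in the mil4 background was tested as the interaction, the change of mil4 sid2 over mil4 minus the change of sid2 over Col. It passed at 1210 probe sets (5.32%), 651 higher (2.86%) and 559 lower (2.46%), and at 1190 with the hybridization day as a fixed block. Without sid2 replicate 1 it passed at 1096. Of the 1210 probe sets, 780 passed in sid2 against Col and not in mil4 sid2 against mil4, and 175 the other way round. At 117 both changes passed, with opposite signs. Of the 641 falls, 189 had a negative and 26 a positive term that passed, and 426 did not pass. Of the 625 rises, 110 had a positive and 11 a negative term that passed, and 504 did not pass. The test uses the same arrays as the comparisons within it, so these counts describe the falls and rises and are no separate evidence. Among the 24 named genes, 7 of 12 falls and 6 of 12 rises passed the interaction test, beside 5.32% of all probe sets. Of all falls of at least 2-fold 44.1% passed it, and of all such rises 29.8%. The named genes were chosen by the change of mil4 sid2 over mil4, which is part of the interaction term.

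Of the 5 named genes with the largest negative interaction terms, EXLA1 and XTH33 are wall genes. EXLA1 read 5800.5, 3773, 4124 and 3681 in sid2, against 650.3, 777, 1746 and 662 in Col, so it was higher in sid2 than in Col (2.27, adjusted p = 0.000347) and lower in mil4 sid2 than in mil4 (-2.08). The difference of the effects was -4.34 (SE 0.55, adjusted p = 4.52e-05). XTH33 averaged 197 ± 36.3 in sid2 and 50.3 ± 27.9 in Col, and its interaction was -3.32 (SE 0.57, adjusted p = 0.000797). The largest term belonged to AT4G16563, at -4.67 (SE 0.49, adjusted p = 7.95e-06). Its arrays read 419.6, 317, 379 and 309.7 in sid2 and 55.1, 62.5, 62.6 and 69.1 in Col. AT1G50040 had -3.71 (adjusted p = 0.000288), and its call in mil4 sid2 against mil4 was lost in 6 of the alternative settings. AT3G59350 had -3.24, but in mil4 sid2 against mil4 it did not pass (log2 fold change -0.48, SE 0.33, adjusted p = 0.479). For all 5 genes the mean was lowest in Col with water, and mil4 and sid2 lay well above it.

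The 5 largest positive terms rested mainly on high levels in Col with water. EXPA8 read 359, 649.9, 586 and 649.6 in sid2, against 3177, 2731, 2402 and 3878 in Col, and its interaction was 4.15 (SE 0.35, adjusted p = 5.92e-07). It was the only one of the 5 that also passed in mil4 sid2 against mil4. ORA47, a transcription factor gene of jasmonate synthesis in Arabidopsis, averaged 119.9 ± 19.7 in mil4 sid2, 95.8 ± 25.4 in mil4, 195 ± 57.6 in sid2 and 2474 ± 694 in Col. AT2G15020 averaged 4.38 ± 1.48 in mil4 sid2, 4.47 ± 3.66 in mil4 and 5.28 ± 4.18 in sid2, all at background, and 339 ± 64.7 in Col. Without sid2 replicate 1 all 10 terms still passed, with adjusted p from 1.36e-06 to 0.00265 in limma. AT1G72920 and AT3G14200 had interaction terms of 3.23 and 2.77 and changes of 0.83 and -0.065 in mil4 sid2 over mil4 that did not pass. WRKY53, a regulator of leaf senescence, read 299.6, 274, 338 and 255 in mil4 sid2, against 149, 204, 174 and 194 in mil4, with 176 ± 26.9 in sid2 and 808 ± 199.9 in Col. Its change in mil4 sid2 over mil4 did not pass (adjusted p = 0.11) and its interaction did (2.74, adjusted p = 2.59e-05).

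**Figure D4:**
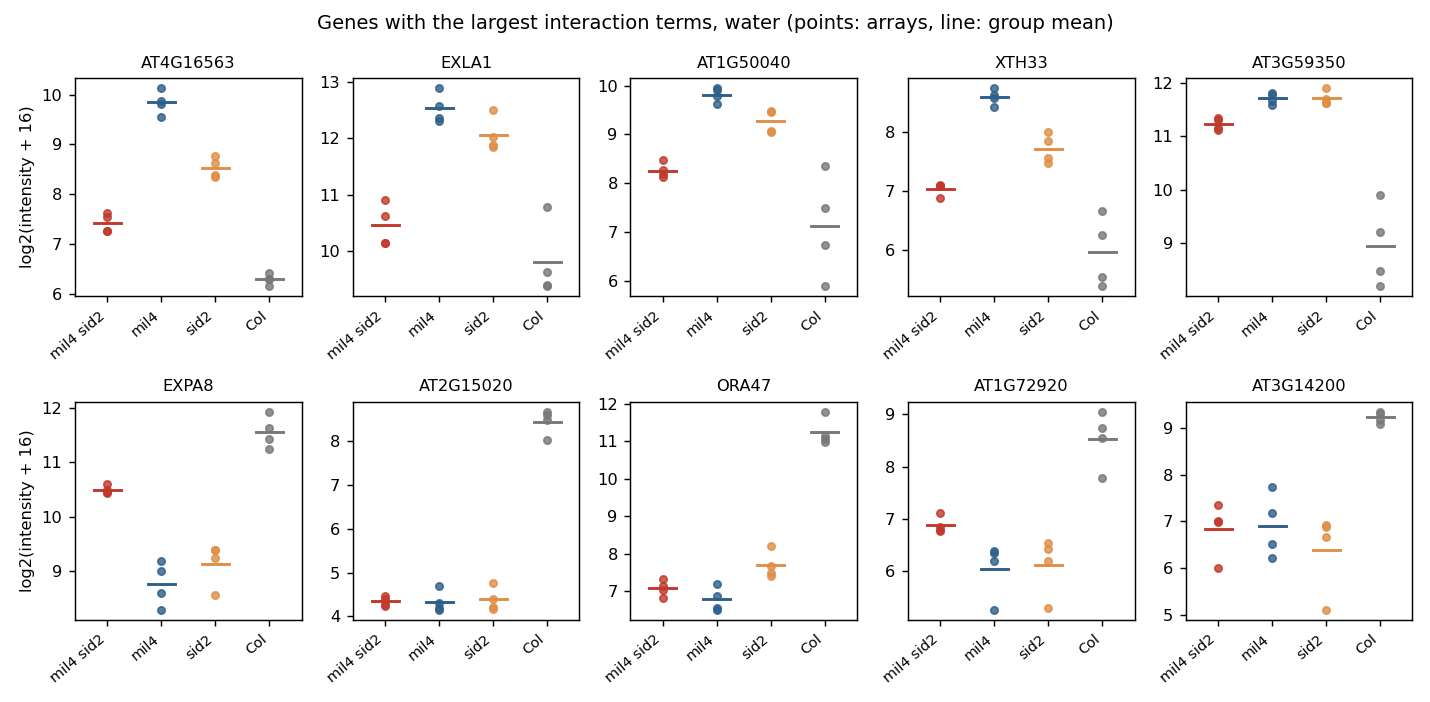
Level, log2(intensity + 16), of the 5 named genes with the largest negative (top) and positive (bottom) interaction terms in mil4 sid2, mil4, sid2 and Col with water; points are the 4 arrays and lines the means. In the top genes Col is lowest and mil4 high, and in the bottom genes Col stands above the other 3 groups.

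The falls were also set beside the response of Col to BTH, which shares no array with mil4 sid2 against mil4. The Col water arrays were on fluidics modules 1 and 3 and the Col BTH arrays on modules 2 and 4. Module and BTH treatment therefore cannot be told apart within these arrays. BTH changed 2886 probe sets in Col (12.7%), of which 1528 (6.72%) rose and 1358 (5.97%) fell. Of the 641 probe sets lower in mil4 sid2, 142 (22.2%) rose with BTH in Col and 122 (19.0%) fell with it, so both directions were above their shares of all probe sets. The 142 made up 9.29% of the probe sets that rose with BTH. Of the 177 falls of at least 2-fold, 54 (30.5%) rose and 28 (15.8%) fell with BTH. Of the 625 probe sets higher in mil4 sid2, 70 (11.2%) rose and 49 (7.84%) fell with BTH. The shares moved with the processing. With the fluidics module as a block 385 probe sets were lower in mil4 sid2. Of these, 9.61% rose and 9.61% fell with BTH by the calls of the same fit.

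AT2G44240 joined a fall in mil4 sid2 with the largest rise on BTH among the 24 named genes. It read 2055, 1900.1, 1464 and 1380.1 in Col with BTH, against 5.3, 42.5, 54 and 7.4 in Col with water (5.48, SE 0.49, adjusted p = 2.25e-07). EXO read 4391, 11551, 7770.2 and 4800.1 in Col with BTH, against 624, 1401, 4295 and 547 with water (2.44, adjusted p = 0.00047), with a wide spread among the water arrays. ATPMEPCRB averaged 964 ± 142 with BTH and 435 ± 95 with water in Col (1.13, adjusted p = 0.000518). GTR1 and SWEET13, lower in mil4 sid2, were also lower with BTH in Col, with log2 fold changes of -0.73 (adjusted p = 0.00324) and -1.25 (adjusted p = 0.0422). Of the 12 named falls, 4 rose, 2 fell and 6 did not pass with BTH in Col. Of the 12 named rises, 3 rose, 1 fell and 8 did not pass.

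Few genes of salicylic acid itself carry a named probe set, and none of these few passed. Genes without a named probe set, PR1 among them, are missing from the counts below. Unnamed probe sets such as 266385_at were not assigned to any list. The counts therefore do not show whether the salicylic acid response as a whole changed. Of 26 genes of its synthesis and signalling, only SAG101, which acts with EDS1 and PAD4, was measured. It read 158, 149, 149 and 155 in mil4 sid2, against 193, 184, 124 and 198 in mil4, and the groups overlapped (log2 fold change -0.16, SE 0.23, adjusted p = 0.777). Of 14 turnover genes 5 were measured, 0 passed higher and 0 lower in limma (0 at an unadjusted p under 0.05), and their median was -0.51. BSMT1, which methylates salicylic acid, averaged 8.25 ± 7.36 in mil4 sid2 and 32.8 ± 25.9 in mil4, near background, and the means of 4 of the 5 stayed under 100 in both groups. Of 31 salicylic acid response genes 4 were measured and 0 passed (1 at an unadjusted p under 0.05). They had 2 positive and 2 negative values, with a median of -0.13. WRKY53 and AT1G09750 had positive log2 fold changes, 0.65 and 0.15, that did not pass. GRX480, a glutaredoxin gene that salicylic acid induces, read 87.2, 88.8, 88.4 and 87 in mil4 sid2, against 80.3, 135, 167 and 156 in mil4 (log2 fold change -0.49, SE 0.27, adjusted p = 0.335). AT5G52810 read 219.8, 267, 287 and 262 in mil4 sid2, against 399.5, 482, 190.1 and 391 in mil4, with mil4 replicate 3 below the other mil4 arrays (log2 fold change -0.41, SE 0.23, adjusted p = 0.369).

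Genes of protein folding in the secretory pathway, which salicylic acid is known to raise through NPR1, were lower in part. Of 6 measured genes of 29, 2 passed lower, beside 2.82% of all probe sets, and 0 higher, all 6 had negative values and the median was -0.24. CRT1b, a calreticulin that folds glycoproteins in the endoplasmic reticulum, read 2259, 2479.9, 2188 and 2204 in mil4 sid2, against 3416, 3684, 3029 and 3027 in mil4 (log2 fold change -0.52, SE 0.096, adjusted p = 0.00243). AT5G07340, placed in the same list, read 351, 365, 363 and 305 in mil4 sid2, against 483, 453, 512 and 607 in mil4 (log2 fold change -0.54, SE 0.11, adjusted p = 0.00636). In Col, BTH raised both, by 0.68 and 0.66 on the log2 scale. BZIP60, a transcription factor gene of the unfolded protein response, averaged 896 ± 95.8 in mil4 sid2 and 1128 ± 266 in mil4 and did not pass (log2 fold change -0.30, SE 0.17, adjusted p = 0.375).

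**Figure D5:**
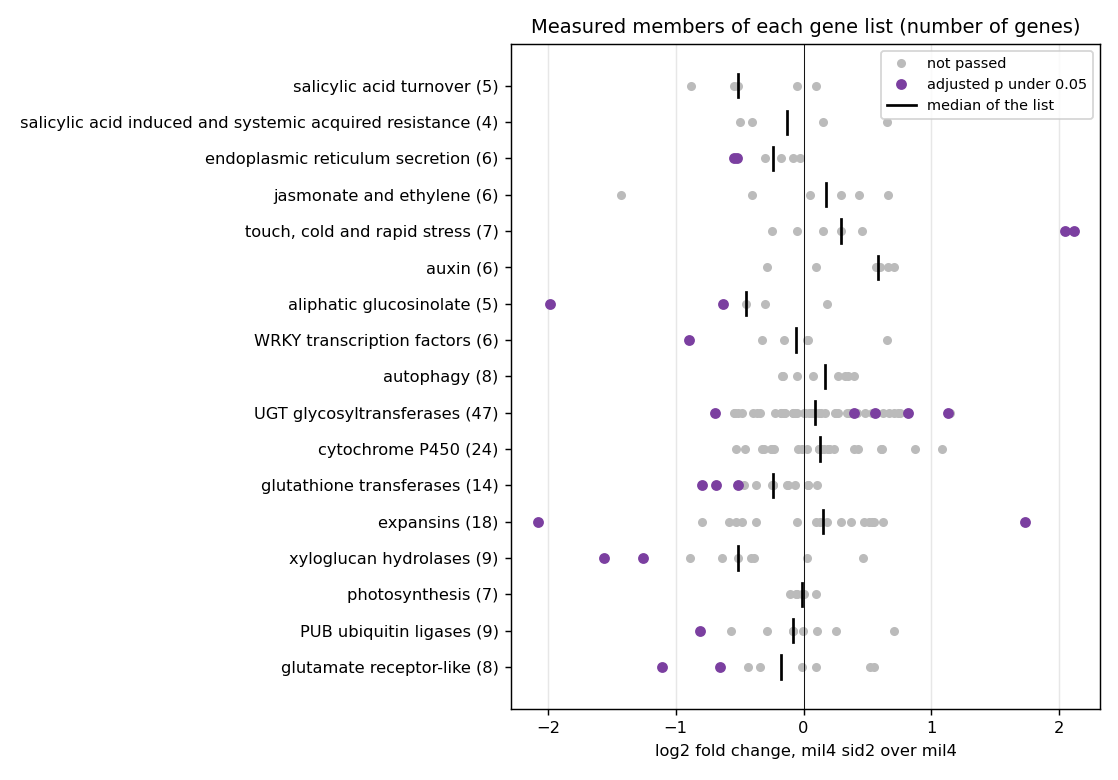
Log2 fold change of mil4 sid2 over mil4 for the measured members of each gene list with at least 4 of them; purple points passed, grey points did not, and black bars are list medians. The 2 purple points of the xyloglucan hydrolases and the 3 of the glutathione transferases lie below 0. No named member of the salicylic acid lists shown passed.

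Glucosinolate, glutathione and glycosyltransferase genes each had a few members that passed. Of 5 measured aliphatic glucosinolate genes, GTR1 and AT2G31790 passed lower, beside 2.82% of all probe sets, 0 passed higher and the median was -0.45. AT2G31790 read 526, 487, 472 and 480.4 in mil4 sid2, against 687, 821, 866 and 714 in mil4 (log2 fold change -0.63, SE 0.15, adjusted p = 0.014). UGT74B1, a glucosyltransferase of glucosinolate synthesis, was the 1 of 2 measured genes of the tryptophan, camalexin and indole glucosinolate list that passed. It was lower, beside 2.82% of all probe sets. UGT74B1 read 767, 579, 596 and 668 in mil4 sid2, against 1226, 1095, 968 and 969 in mil4 (log2 fold change -0.69, SE 0.16, adjusted p = 0.0143). Of 14 glutathione transferase genes, whose enzymes attach glutathione to reactive compounds, 3 passed lower, beside 2.82% of all probe sets, and 0 higher, with a median of -0.24. GSTU20 read 4033, 3732, 4583 and 4030.2 in mil4 sid2, against 6631, 6857, 6532 and 8539 in mil4 (log2 fold change -0.80, SE 0.11, adjusted p = 0.000244). GSTU27 and GSTU18 changed by -0.69 and -0.51. Of 47 glycosyltransferase genes with a UGT symbol 4 passed higher, beside 2.75% of all probe sets, and 1 lower, beside 2.82%. The other 42 did not pass, and the median was 0.093. Genes known here by locus alone were not counted in this family. UGT85A4 read 452, 486, 497 and 531 in mil4 sid2, against 271, 278, 317 and 229.5 in mil4, with a tight spread in both groups (log2 fold change 0.81, SE 0.10, adjusted p = 5.01e-05). UGT71C5 and UGT71C4 changed by 0.56 and 0.39. The 24 cytochrome P450 genes had 0 calls (3 at an unadjusted p under 0.05).

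Immune receptors and regulators were measured in small numbers. GLR2.8 and GLR2.7, glutamate receptor-like ion channels, were the 2 of 8 members of their family that passed, both lower, where 2.82% of all probe sets were lower, with 0 higher and a median of -0.18. GLR2.8 read 55.9, 36.5, 17.7 and 54.5 in mil4 sid2, against 121, 88.7, 97 and 103 in mil4 (log2 fold change -1.11, SE 0.26, adjusted p = 0.0147). GLR2.7 read 136, 200.5, 136 and 162 in mil4 sid2, against 193, 274, 265 and 301 in mil4 (log2 fold change -0.65, SE 0.18, adjusted p = 0.0325). GLR2.7 lost its call in 10 and GLR2.8 in 4 of the alternative settings. BTH raised both in Col, by 1.93 and 1.42 on the log2 scale. Of 6 WRKY transcription factor genes, WRKY22, which acts in pattern-triggered immunity, passed lower, beside 2.82% of all probe sets, and 0 passed higher. The list had 3 positive and 3 negative values and a median of -0.059. WRKY22 was the only member called. It read 81.4, 106, 128 and 105 in mil4 sid2, against 136, 273, 193 and 256 in mil4 (log2 fold change -0.90, SE 0.20, adjusted p = 0.00902). PUB26, a U-box ubiquitin ligase of immune signalling, was the 1 of 9 PUB genes that passed, where 5.57% of all probe sets did, and read 181, 179, 171 and 207 in mil4 sid2, against 366, 342, 493 and 202 in mil4 (log2 fold change -0.81, SE 0.21, adjusted p = 0.0235). The groups overlapped at mil4 replicate 4, and the call was lost in 8 of the alternative settings. EFR, the receptor of bacterial EF-Tu, and BIK1, a kinase of receptor complexes, did not pass, nor did the zinc-finger gene STZ, the 1 measured gene of oxidative stress.

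Jasmonate, auxin, autophagy and photosynthesis genes had 0 calls in limma, and 1 of 6, 2 of 6, 4 of 8 and 0 of 7 had an unadjusted p under 0.05. The 6 measured jasmonate and ethylene genes included the defensin genes PDF1.2 and PDF1.2b, which varied widely in mil4. PDF1.2 read 1451, 714, 1775 and 1342 in mil4 sid2, against 311, 1862, 301 and 3964 in mil4 (log2 fold change 0.44, SE 0.84, adjusted p = 0.838). JMT, which methylates jasmonate, averaged 78.8 ± 20.9 in mil4 sid2 and 108 ± 14.5 in mil4 and did not pass. Of 6 auxin genes 5 had positive values, and the median was 0.58. GH3.3, an enzyme that joins auxin to amino acids, read 489.9, 329, 422 and 356 in mil4 sid2, against 187, 264, 298 and 209 in mil4 without overlap, yet its adjusted p of 0.107 missed the threshold. The 8 autophagy genes had a median of 0.17, and ATG8C came closest to passing (adjusted p = 0.0685). The 7 photosynthesis genes lay between -0.11 and 0.10, with a median of -0.01. Of the senescence genes SAG29 and GAMMA-VPE, a vacuolar protease of cell death, neither passed. Only 2 of the 30 genes of the clock list were measured, GI and AT5G52660, and neither passed. The 1 measured small heat shock gene did not pass, and no cysteine-rich receptor-like kinase or receptor-like protein gene was named.

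Levels in all 4 water genotypes are given for the leading genes, since mil4 sid2 against Col and against sid2 share arrays with mil4 sid2 against mil4. GTR1 averaged 395 ± 52 in mil4 sid2, 1605 ± 179.7 in mil4, 694 ± 212 in sid2 and 1452 ± 178 in Col (SD, n = 4 each). Its mil4 and Col arrays overlapped, and every mil4 sid2 array lay below every sid2 array. AT5G48490 was likewise lowest in mil4 sid2, with 948 ± 68.1 in mil4 sid2, 3237 ± 319 in mil4, 2074 ± 196 in sid2 and 3573 ± 223 in Col. EXO averaged 1513 ± 64.8 in mil4 sid2, 6229 ± 796 in mil4 and 1717 ± 1761 in Col, where a single array at 4295 set the spread, and read 2668, 1822, 2410.4 and 1965 in sid2. EXLA1 in mil4 sid2, at 1423 ± 384, lay below sid2, at 4345 ± 989, and its arrays overlapped those of Col, at 959 ± 528. COR27 was ordered mil4 sid2, sid2, mil4 and Col, at 1265 ± 198, 604 ± 67.8, 278 ± 20.2 and 24.5 ± 18, with no overlap between neighbours. AT2G36970 averaged 229 ± 7.23 in mil4 sid2, 85.3 ± 14.3 in mil4, 174 ± 31.4 in sid2 and 198 ± 42.7 in Col, with mil4 lowest. In mil4 sid2 against sid2, both hybridized on day 4, 107 probe sets passed (0.47%), 45 higher (0.198%) and 62 lower (0.273%).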

How the data were processed

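Biotinylated cRNA from 15 µg of total RNA of 4-week-old rosettes was hybridized to ATH1 arrays, per the labels' protocols, with 4 arrays in each of 6 groups. The deposited values are intensities on a linear scale, 1 per probe set, from 0.1 to 47321.3, with the same 2% trimmed mean, 500 to 500.1, on every array, which is how the authors deposited them. The sources used here do not name the summary software, so its part in the precision of the values cannot be given. Hybridization day, run and fluidics module were read from the settings files of the arrays. Promoter motifs, planned at first, were not analysed here.

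From these intensities log2(intensity + 16) was computed for the 22746 probe sets that are not Affymetrix controls, with no further normalization or filter. A mean for each of the 6 groups was fitted over all 24 arrays with limma 3.58.1 in R 4.3.3 (lmFit and eBayes), so the groups share a spread estimate, and p-values were adjusted by Benjamini-Hochberg within each contrast over all probe sets, with a threshold of 0.05. The script was tested on simulated data. Gene names came from the platform annotation and the RefSeq table of assembly TAIR10.1: 13513 probe sets had 1 gene name, 503 several and 8730 none, and 13436 matched the RefSeq table. Genes with several probe sets are shown by the brightest.

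Named genes are the 12 largest changes each way among probe sets that passed, had 1 gene name, did not overlap between groups and averaged at least 100 in the higher group; the 5 largest interaction terms each way with a mean of at least 100 in the highest group; and up to 4 genes of each list by size of change. The members and the lists were chosen with earlier results of these data known, and the lists described last were added after the calls were seen. Families such as UGT, cytochrome P450 and WRKY were gathered by gene symbol, so members known by locus alone were not counted in them. Replicate numbers did not pair the arrays. The alternatives were other pseudocounts, quantile normalization, only the brighter probe sets, the compared groups alone, replicate, day, run and module blocks, array weights, omission of cross-binding probe sets and omission of each array. Figures were drawn with matplotlib 3.10.9.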

Additional observations from a re-analysis of the deposited data

Results flagged for a closer look

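For 16 genes a single array lay far from the other 3 of its group, among 268 groups tested on 134 genes, where chance marks about 1 group in 20. In mil4 sid2, SWEET13 read 3.9 in replicate 1 (others 63.4 to 87.4), UGT76E2 9.7 in replicate 1 (others 64.1 to 76.5) and ANX1 2.8 in replicate 1 (others 39.7 to 51.5). XTH33 read 102.1 in replicate 2 (others 119.6 to 120.4) and XTH29 49.1 in replicate 2 (others 3.3 to 5.2), and GSTU25 read 30.3 in replicate 3 (others 2 to 4.6). AT4G33980 read 870.4 in replicate 4 (others 757 to 769.8) and SIR 2362 in replicate 4 (others 1973 to 1986). In mil4, AT1G13650 read 312 in replicate 2 (others 420.6 to 445) and GLR3.6 49.6 in replicate 2 (others 69.9 to 74.8). AT1G72920 read 22.6 in replicate 3 (others 57.2 to 67.5), SAG101 124 in replicate 3 (others 184 to 198) and APS4 923 in replicate 3 (others 1257 to 1279). SPCH read 65.9 in replicate 4 (others 134 to 154), GSTU27 1559 in replicate 4 (others 1056 to 1107) and SPY 304 in replicate 4 (others 409 to 422). Among the array medians, that of mil4 replicate 3 also stood apart at 159, against 152.1 to 153 in the other mil4 arrays.

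For 33 of these 134 genes and probe sets, the change of mil4 sid2 over mil4 differed from that of sid2 over Col by the interaction test. The share of all probe sets was 5.32%. The 10 genes with the largest interaction terms are among the 33 by choice, so part of this count was fixed in advance. Among the 24 named genes the interaction term was -2.93 for AT2G44240, -4.67 for AT4G16563, -1.22 for AT2G27080, -4.34 for EXLA1, -2.88 for EXO, -0.90 for GTR1 and -0.97 for AT5G48490. Among the rises it was -1.94 for COR27, 4.15 for EXPA8, 1.45 for AT2G36970, 2.58 for AT5G50335, 1.83 for AT1G11210 and 2.40 for UGT71B1. Of the genes chosen by this test, AT1G50040 had -3.71, XTH33 -3.32, AT3G59350 -3.24, AT2G15020 4.07, ORA47 3.86, AT1G72920 3.23 and AT3G14200 2.77. The unnamed 266385_at had -2.02 and 245757_at -3.03. From the lists, WRKY53 had 2.74, STZ 2.75, PUB26 1.37, GID1C 1.11, GLR3.5 0.98 and BZIP60 0.86. EXLA2 had -1.75, XTH16 -1.87, THE1 -1.88, MCCA -1.73 and JMT -1.05. STZ, the zinc-finger gene, averaged 498 ± 38.2 in mil4 sid2, 461 ± 137 in mil4, 505 ± 127 in sid2 and 3075 ± 314 in Col, so Col alone was high.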

How the results depend on the processing

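No gene value that had passed changed sign under the alternatives run. Of the values that had not passed, 15 changed sign in at least 1 setting, among them AT2G15020, AT3G14200, APS4 and PDF1.2, as did the medians of 7 lists. The count in mil4 sid2 against mil4 (1266; 625 higher, 641 lower) was 609 (225 and 384) with the groups alone and 590 (205 and 385) with the fluidics module as a block. Restriction to the brighter probe sets gave 984 higher and array weights 1008 higher. The module block gave 399 higher interaction terms, against 651. Leaving out 1 array gave 807 to 1328 calls, 340 to 712 of them higher; without replicate 1, 2 or 4 of either group, 340 to 408 were higher. Of the lower probe sets, 34.9% were also lower in sid2 with the groups alone, against 43.2%, and 40.9% to 50.6% without 1 array. Of the higher ones, 26.7% were also higher in sid2 with the groups alone, 28.3% with the module block, 28.1% with array weights and 26.9% to 38.2% without 1 array, against 33.0%. The share of lower probe sets that rose with BTH was 14.6% with the groups alone, 9.61% with the module block and 18.2% to 25.5% without 1 array, against 22.2%. The share that fell with BTH was 11.2%, 9.61% and 14.5% to 21.6%, against 19.0%. Each share is of the probe sets called in that setting. The cause of these moves was not tested. Of the 1266 calls, 539 were kept with the groups alone, 553 with the module block and 1070 with quantile normalization (466 higher, 705 lower). In module 1 alone, a setting added after seeing the data, with 2 arrays of each group and no test, EXLA1 had a log2 fold change of -1.95 and COR27 of 2.14.

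Replicate numbers did not pair the arrays: deviations of same-numbered arrays correlated at 0.026, 0.116, -0.102 and -0.093. The replicate block on the groups alone left 23 calls, 3 higher and 20 lower. Under it 66.7% of the higher were also higher in sid2, 35.0% of the lower also lower in sid2, and 10% of the lower fell with BTH.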

Other observations

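Some gene groups that came to notice only among the calls are described here; their lists were added after the calls were seen, and their counts support nothing by themselves. Of 8 measured genes of leucine, isoleucine and valine breakdown in mitochondria, 6 passed higher, beside 2.75% of all probe sets, and 0 lower, all 8 had positive values and the median log2 fold change was 0.48, beside 0.071 over all probe sets. ETFQO, which passes electrons from this pathway to the respiratory chain, read 622, 572, 532 and 443 in mil4 sid2, against 342, 315, 440.3 and 238 in mil4 (log2 fold change 0.70, SE 0.18, adjusted p = 0.0238). MCCA, a subunit of the leucine-breakdown carboxylase, read 2163, 1933, 1657 and 2056 in mil4 sid2, against 1395, 1220.2, 1300.3 and 1032 in mil4 (log2 fold change 0.65, SE 0.17, adjusted p = 0.0276), and in sid2 over Col it rose by 2.39. ALDH6B2, a methylmalonate-semialdehyde dehydrogenase, read 4577, 4689, 4037 and 4356 in mil4 sid2, against 3291, 2870.0, 3043 and 2856 in mil4 (log2 fold change 0.55, SE 0.09, adjusted p = 0.000852), and IVD, isovaleryl-CoA dehydrogenase, just passed (log2 fold change 0.65, SE 0.19, adjusted p = 0.0495). IVD lost its call in 14, and ETFQO and MCCA in 7 each, of 19 alternative settings. Of 5 measured gibberellin signalling genes 3 passed higher, beside 2.75% of all probe sets, and 0 lower. Their median was 0.48, and GID1B and SLY1 did not pass. The receptor gene GID1C read 138, 145, 164 and 162 in mil4 sid2, against 75.8, 75.7, 69.1 and 104 in mil4 (log2 fold change 0.80, SE 0.19, adjusted p = 0.014), its relative GID1A changed by 0.48 and lost its call in 7 settings, and SPY, a repressor of gibberellin response, changed by 0.49 and lost its call in 5.

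Some genes of sulfate assimilation and of methionine repair passed lower. APS3, an ATP sulfurylase, read 772, 681, 711 and 809.9 in mil4 sid2, against 1155, 1363, 956 and 1059 in mil4 (log2 fold change -0.59, SE 0.13, adjusted p = 0.0072), and SIR, sulfite reductase, read 1983, 1986, 1973 and 2362 in mil4 sid2, against 2976, 3256, 2696 and 3262 in mil4 (log2 fold change -0.55, SE 0.13, adjusted p = 0.0114). They were 2 of 3 measured genes of that list, where 2.82% of all probe sets were lower, and APS4 did not pass. Of 5 methionine sulfoxide reductase genes, whose enzymes repair oxidised methionine, MSRB6 and MSRB5 passed lower, beside 2.82% of all probe sets. MSRA5 passed higher, beside 2.75%. MSRB6 read 1475, 1514, 1368 and 1462 in mil4 sid2, against 2900.2, 2052, 3604 and 2843 in mil4 (log2 fold change -0.94, SE 0.17, adjusted p = 0.0025). THE1, a receptor kinase that senses wall integrity, was the 1 of 4 measured kinases of its family that passed, where 2.82% of all probe sets were lower. It read 699, 764, 703 and 767 in mil4 sid2, against 1159, 1487, 1426 and 1696 in mil4 (log2 fold change -0.95, SE 0.19, adjusted p = 0.00392). FER, the best known kinase of that family, did not pass (log2 fold change -0.26, SE 0.12, adjusted p = 0.261). Of 14 SWEET sugar transporter genes, SWEET13 and SWEET17, a fructose carrier of the vacuole, passed lower, beside 2.82% of all probe sets, and 0 higher, with SWEET17 at -0.63. The other 12 did not pass, and with 8 of 14 values positive the median was 0.13.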
